A study of Mus musculus with 18 samples.

Results

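Aged mouse hippocampus with impaired spatial memory was compared with aged mouse hippocampus with unimpaired spatial memory. The samples were chosen by their titles, which name 6 aged impaired and 6 aged unimpaired samples among 18 in the series. The other 6 are young hippocampus, which entered no test between groups. They served the estimate of the spread, the choice of probe sets and the slopes of covariates. Their medians are given beside those of Dbp and Hspa5. The series description contrasts animals with good and with poor spatial memory. Total RNA of each sample was labelled with biotin and hybridised to 1 Affymetrix array. Age in months, strain, sex, memory test, hour of collection and batch were not among the labels. Nothing in the labels says that each sample came from a separate animal, so a p-value here reflects only how much these samples vary, and that variation can be technical.

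The hippocampus is needed for spatial learning. Its main circuit runs from the granule cells of the dentate gyrus through the mossy fibres to CA3 pyramidal neurons and on to CA1 pyramidal neurons, with CA2 between the last pair. Inhibitory neurons, astrocytes, microglia and myelinating oligodendrocytes surround these neurons, and the choroid plexus, thalamus and cortex lie beside the tissue. Dbp is a transcription factor of the PAR bZIP family whose transcription is driven by the circadian clock proteins Clock and Arntl. Hspa5, also called BiP or GRP78, is the main Hsp70 chaperone of the endoplasmic reticulum (ER). Its promoter is a classic target of the unfolded protein response, in which the factors Atf6 and Xbp1 act at ER stress elements.

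Expression is given as log2(signal + 16) after each array was scaled to the same trimmed mean of 500, so a difference of 1 is a doubling for bright genes and understates the change of dim ones. Differences are aged impaired minus aged unimpaired, with the standard error of a limma fit after the sign ±, over 6 samples a group. A probe set was called at an adjusted p under 0.05 over all 27022 tested. By that rule 3 probe sets were called, or 0.0111%, of which 2 belong to Dbp and 1 to Hspa5. The 2 higher are 0.0074% and the 1 lower 0.0037%. An unadjusted p under 0.05 was reached by 2185 probe sets (8.09%), 4.3% higher and 3.78% lower. In 142 probe sets (0.525%) the ranges of the groups stayed apart. The impaired mean was higher in 51.8% and lower in 48.2% of probe sets. Fitted on the 12 aged samples alone, 0 probe sets were called, with 2126 at an unadjusted p under 0.05 (7.87%) and a lowest adjusted p of 0.0877. Most genes differed little: the median difference of 13105 named genes was 0.01, with quartiles of -0.07 and 0.10, against a median standard error of 0.106. With each gene taken on its brightest probe set, 52.3% of genes had a higher and 47.7% a lower mean. An unadjusted p under 0.05 was reached by 8.07% of genes, 4.43% higher and 3.64% lower, and by 7.54% with only the 12 aged samples. The counts at this p given for lists below stand against these shares. Only 247 genes differed by more than 0.5 in either direction, and 19 by more than 1.

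The ER stress element is shown because the gene called as lower carries it and because it links genes that share no name. It was searched in RefSeq promoter windows of build GRCm38.p6, from 250 bases before to 50 bases after each start site, on both strands, as CCAAT and CCACG separated by 9 bases of any kind. Of 13710 windows of tested genes, 15 hold it (0.109%). The search could use 10611 tested genes, and the other 2494 have no window. The Hspa5 match lies at chr2:34772025-34772043 and begins 65 bases before the start site. The 250 bases upstream of Hspa5 (chr2:34771840-34772089, plus strand) are printed with the fixed letters of the element in capitals.

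Hspa5 upstream: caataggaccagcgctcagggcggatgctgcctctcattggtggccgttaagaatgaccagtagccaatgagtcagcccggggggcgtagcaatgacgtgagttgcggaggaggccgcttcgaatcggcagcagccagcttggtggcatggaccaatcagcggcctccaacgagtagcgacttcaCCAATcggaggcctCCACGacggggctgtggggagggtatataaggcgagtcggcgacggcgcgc

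Beside it stand the elements of the other genes with roles in the ER, and of Adcy3, read in the direction of the element. The fixed letters are in capitals. By the pattern searched, they can differ only in the 9 bases between the fixed ends. Acacb, Pan2 and Spats2l, which are outside this ER group, also hold the element, but theirs are not printed. Hsp90b1 carries 2, at chr10:86705533-86705551 and chr10:86705638-86705656. The element at chr15:88819520-88819538 lies between Creld2 and Alg12, which run away from each other, and counts for both.
Hspa5: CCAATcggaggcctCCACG
Creld2 and Alg12: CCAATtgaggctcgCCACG
Pdia6: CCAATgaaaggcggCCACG
Hsp90b1, nearer: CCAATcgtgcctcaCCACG
Hsp90b1, farther: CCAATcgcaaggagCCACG
Syvn1: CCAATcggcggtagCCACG
Canx: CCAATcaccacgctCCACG
Calr: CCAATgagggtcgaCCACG
Dnajc3: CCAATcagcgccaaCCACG
Derl3: CCAATggggaagtcCCACG
Ero1b: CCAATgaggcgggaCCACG
Adcy3: CCAATtcggcgtttCCACG

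The array median of the deposited signal lay between 23.5 and 30.5, and the log2 ratio of 3' to 5' control signal between 0.235 and 0.374 in impaired and between 0.276 and 0.425 in unimpaired samples. A few arrays stand apart in ways that touch the results. The mean log2 level of choroid plexus genes was low in impaired replicate 5 (7.29) and in unimpaired replicates 3, 4 and 5 (7.28, 6.87 and 7.33), and at least 8.99 in the other 8 aged arrays. Unimpaired replicate 6 stood above the other unimpaired samples for reactive astrocyte, microglial and lysosomal genes. List values without these arrays are given beside several of the lists they touch. Markers of CA1, granule cells, inhibitory neurons and astrocytes lay well above the level needed for testing in both groups. Their mean log2 levels in the impaired samples were 11.17 for Wfs1 (CA1), 8.495 and 10.01 for Prox1 and Dsp (granule cells), 13.68 for Gad1 (inhibitory neurons) and 14.43 for Slc1a2 (astrocytes). The mossy cell marker Drd2 was dim, at 6.32 in impaired and 6.37 in unimpaired samples. No detection call was used.

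Dbp rose in the aged impaired samples on both of its probe sets. On the brighter, the log2 levels of impaired samples 1 to 6 were 11.29, 11.25, 11.42, 11.11, 11.01 and 11.30. Those of unimpaired samples 1 to 6 were 10.65, 10.43, 10.61, 10.77, 10.66 and 10.55. The lowest impaired sample, replicate 5, was above the highest unimpaired sample, replicate 4, so the groups did not overlap. The rise was 1.54-fold (0.62 ± 0.07, adjusted p = 0.00288, and 0.0877 with only the 12 aged samples). On the dimmer the levels were 10.50, 10.77 and 10.89 (lowest, median, highest) in impaired and 10.01, 10.19 and 10.39 in unimpaired samples, again without overlap. This rise was 1.48-fold (0.56 ± 0.07, adjusted p = 0.00646, and 0.0970 with only the 12 aged samples). The young samples, in no test here, had medians of 10.45 and 10.08 on these probe sets, below both unimpaired medians. With the myelin minus presynaptic level of each array as a covariate, the differences were 0.58 and 0.52, both at an adjusted p of 0.142.

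**Figure D1:**
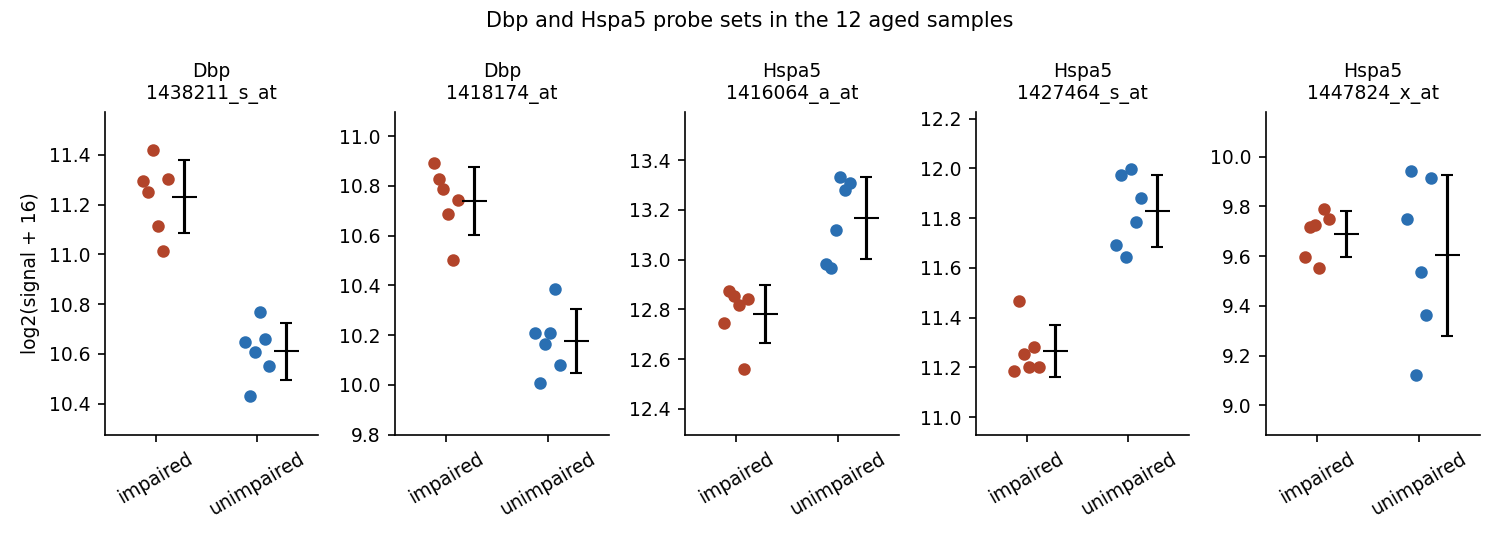
Log2(signal + 16) of each tested probe set of Dbp and Hspa5 in the 6 aged impaired (red) and 6 aged unimpaired (blue) samples, 1 point per sample, with the group mean and SD in black; panels run from the brighter to the dimmer Dbp and then from the brightest to the dimmest Hspa5 probe set, and no axis starts at 0. Both Dbp probe sets separate the groups with impaired samples higher, the brightest and the middle Hspa5 probe sets separate them with impaired samples lower, and the dimmest overlaps.

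Beyond Dbp, the clock genes lay on both sides of 0. Of 31 listed clock genes and outputs, 29 were tested, 1 was called (Dbp; 0.00763% of all genes were called), 19 had a higher and 10 a lower mean, and the median difference was 0.09. At an unadjusted p under 0.05, 5 were higher and 4 lower, against 4.43% and 3.64% of all genes. None of the others passed the adjusted test.

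The loop of activators and repressors was split. Arntl (Bmal1), the activator that pairs with Clock, had levels of 8.79, 9.07 and 9.24 in impaired and 9.05, 9.35 and 9.51 in unimpaired samples (-0.25 ± 0.08). Npas2, which can stand in for Clock, had a higher mean (0.30 ± 0.12), while Clock itself differed by -0.08 ± 0.08. The repressors also diverged, with Per1 at 0.28 ± 0.12, Per2 at -0.21 ± 0.10, Per3 at -0.01 ± 0.12 and Cry1 and Cry2 at 0.10 and 0.07. Nr1d1 and Nr1d2, the REV-ERB repressors of Arntl, had means 0.26 ± 0.19 and 0.12 ± 0.09 higher, and their activating counterparts Rora and Rorb stood at 0.20 ± 0.09 and -0.28 ± 0.12. Tef and Hlf, the close relatives of Dbp that bind the same sites, differed by -0.17 ± 0.08 and 0.10 ± 0.10, and Nfil3, which represses those sites, by -0.32 ± 0.12. Per1 and Tsc22d3 (Gilz, 0.28 ± 0.11) are also induced by glucocorticoids. These values are those of the brightest probe set, and Clock, Arntl, Npas2, Per2, Per3, Nr1d2, Rora, Rorb, Tef, Hlf and Tsc22d3 each had at least 1 other probe set of opposite sign.

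**Figure D2:**
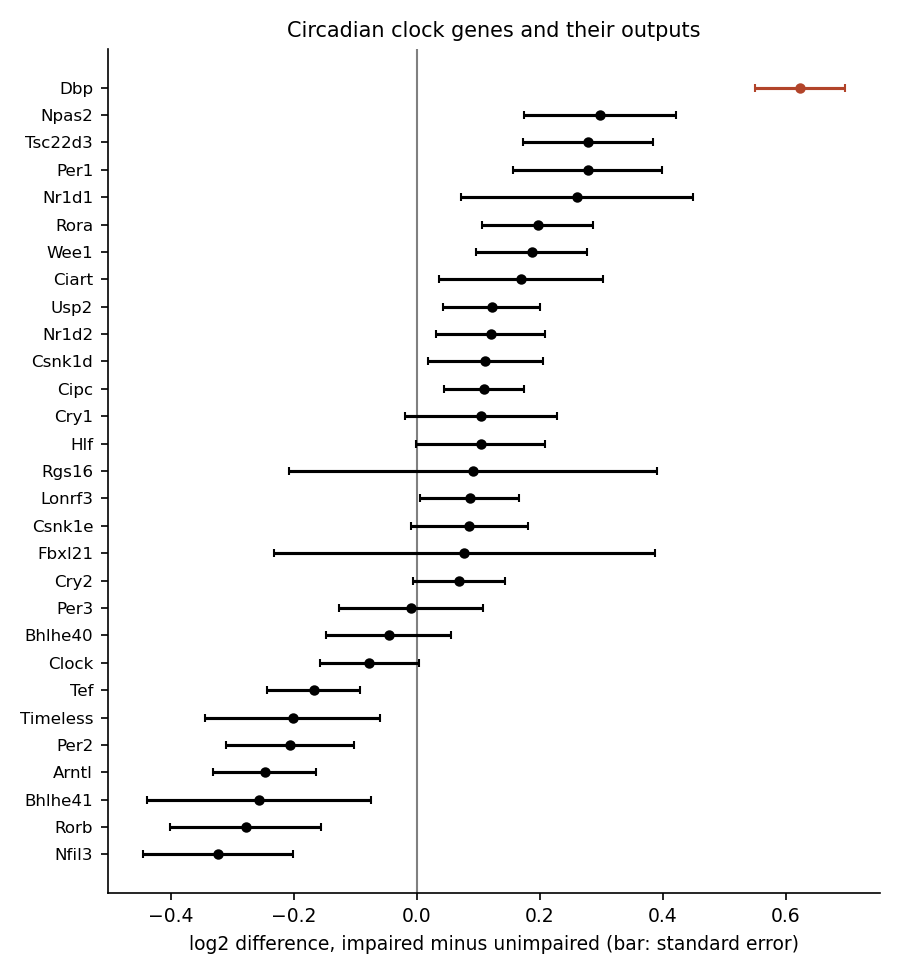
Log2 difference, aged impaired minus aged unimpaired, of the 29 tested clock genes and outputs, with bars of 1 standard error. Dbp (red, 0.62) stands apart at the top, and the others lie on both sides of 0, from Nfil3 at -0.32 to Npas2 at 0.30.

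Genes induced by glucocorticoid hormone, the stress hormone to which the hippocampus is highly sensitive, had higher means in 20 of 28, with a median of 0.10, and 5 higher and 0 lower at an unadjusted p under 0.05. The 5 were Nfkbia, the inhibitor of NF-kB (0.37 ± 0.09), Sgk1, a kinase (0.42 ± 0.14), Mt2, a metallothionein (0.60 ± 0.20), Tsc22d3 and Per1. Sgk1 lay at 11.37, 11.57 and 12.31 in impaired and at 11.11, 11.19 and 11.50 in unimpaired samples, overlapping. Per1 and Tsc22d3 stand in the clock list too, as a few genes stand in more than 1 list. Without impaired replicate 2 the median of the list was 0.05.

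Hspa5 was lower in the aged impaired samples on 2 of 3 probe sets, and the test passed on 1 of them. On the brightest the levels were 12.56, 12.83 and 12.87 in impaired and 12.97, 13.20 and 13.33 in unimpaired samples. The groups did not overlap, yet the difference of -0.38 ± 0.09 did not pass (adjusted p = 0.271, and 0.383 with only the 12 aged samples). On the middle one the levels of Hspa5 were 11.19, 11.23 and 11.47 against 11.64, 11.83 and 11.997, also without overlap. There Hspa5 fell by 0.56 ± 0.09 on the log2 scale, which makes the unimpaired samples 1.48-fold higher (adjusted p = 0.0462, and 0.0970 with only the 12 aged samples). This call sat at the threshold and held in 7 of 26 alternative analyses, whereas each Dbp call held in 23. The dimmest overlapped and differed by 0.08 ± 0.12. The identifiers of the middle and the dimmest Hspa5 probe sets, and of the brighter Dbp probe set, mark them as holding probes that can match more than 1 transcript. Young samples had medians of 13.35 and 12.02 on the brightest and the middle probe set, above the unimpaired medians.

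Genes with an ER stress element in their promoter window were mostly lower. Of the 15, 12 had a lower and 3 a higher mean, with a median of -0.10 against 0.01 for all genes. At an unadjusted p under 0.05, 6 were lower (3.64% of all genes were) and 0 higher, and 0 were called on their brightest probe set. These windows were searched with the Hspa5 result known, and Hspa5 is 1 of the 15.

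Among the 6, Creld2, a disulfide isomerase-like protein secreted under ER stress, had levels of 8.78, 8.90 and 9.27 in impaired and 8.96, 9.43 and 9.60 in unimpaired samples (-0.42 ± 0.12). Pdia6, a disulfide isomerase, lay at 10.72, 10.92 and 11.19 against 10.99, 11.21 and 11.42 (-0.31 ± 0.12). Hsp90b1, the ER form of Hsp90 known as GRP94, differed by -0.19 ± 0.09, and Syvn1, the ubiquitin ligase of ER-associated degradation, by -0.17 ± 0.06, with 1 of its 2 probe sets the other way. In each of these 4 genes the ranges overlapped. Adcy3, an adenylyl cyclase with no folding role, carries the element at chr12:4133251-4133269 and differed by -0.34 ± 0.11, although 2 of its 4 probe sets went the other way. The lectin chaperones Canx and Calr stood at -0.10 ± 0.06 and -0.09 ± 0.07. Spats2l and Pan2 differed by -0.17 ± 0.10 and -0.01 ± 0.17. Dnajc3, a co-chaperone, Ero1b, which supplies disulfide bonds, and Alg12, a mannosyltransferase, lay within 0.04 of 0 either way. Derl3, a channel subunit of degradation, and Acacb, a fatty acid enzyme, had higher means (0.58 ± 0.32 and 0.36 ± 0.47) with wide errors. The second form of the element, ATTGG and CCACG separated by 1 base, lies in 8 windows (0.0584%), and 5 of those genes were lower and 3 higher, with a median of -0.07.

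**Figure D3:**
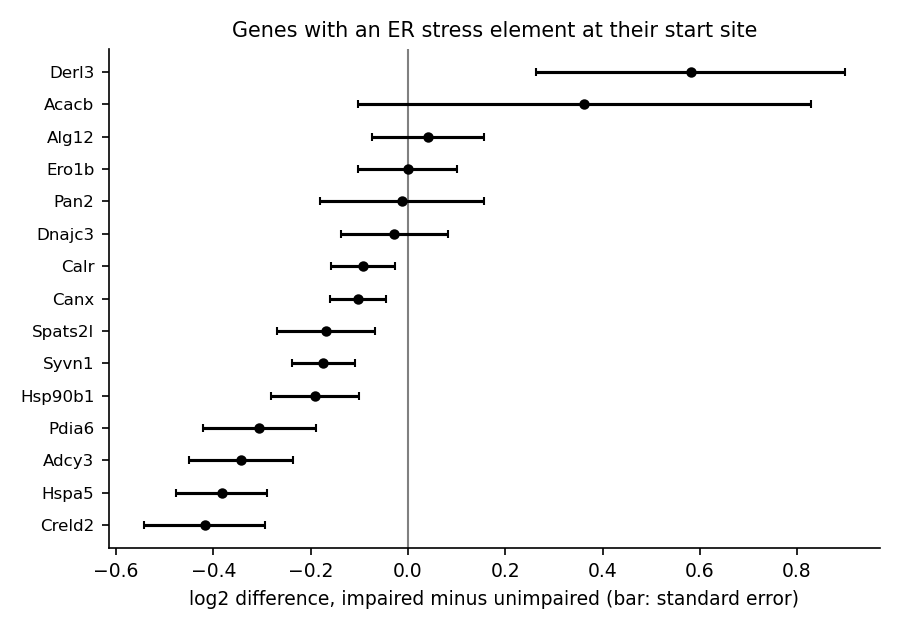
Log2 difference, aged impaired minus aged unimpaired, of the 15 tested genes whose promoter window holds an ER stress element, with bars of 1 standard error. Creld2 (-0.42), Hspa5 (-0.38), Adcy3 (-0.34) and Pdia6 (-0.31) lie farthest to the left, most others lie near 0, and Acacb and Derl3 have the widest bars on the right.

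Over the whole ER machinery the median lay near 0, though low p-values fell more often on the lower side. Of 89 tested genes of ER folding and the unfolded protein response, 38 had a higher and 51 a lower mean, with a median of -0.02, and that median was 0.00 without unimpaired replicate 6. At an unadjusted p under 0.05, 3 were higher and 10 lower, against 4.43% and 3.64% of all genes. The groups did not overlap in 2 (0.244% of all genes did so in this direction), Hspa5 and Manf. Manf, a secreted factor that binds Hspa5 and protects neurons, lay at 10.58, 10.68 and 10.95 in impaired and 11.03, 11.06 and 11.26 in unimpaired samples (-0.36 ± 0.08, adjusted p = 0.249). Manf had no promoter window, so it was not searched for the ER stress element. Xbp1, the transcription factor spliced in the unfolded protein response, differed by -0.22 ± 0.08, and Pdia3, a disulfide isomerase of glycoproteins, by -0.23 ± 0.08. Ppp1r15a (Gadd34), which ends the translation block of ER stress, went the other way, with 8.44, 8.71 and 9.01 in impaired and 7.98, 8.32 and 8.53 in unimpaired samples (0.44 ± 0.12). The 3 sensors of the response, chosen here for their role after the values were seen, were near 0, with Atf6 at -0.03 ± 0.09, Ern1 at 0.06 ± 0.09 and Eif2ak3 at 0.00 ± 0.11. So were Atf4 (0.07 ± 0.08) and Ddit3 (0.05 ± 0.14), the factors of the Eif2ak3 arm.

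Chaperones outside the ER were lower in mean more often than higher, in 30 of 46, with a median of -0.06. At an unadjusted p under 0.05, 7 were lower and 1 was higher. Hspa8, the constitutive cytosolic Hsp70, lay at 14.62, 14.69 and 14.85 in impaired and 14.74, 15.06 and 15.16 in unimpaired samples (-0.26 ± 0.08), and 1 of its 4 probe sets went the other way. Chordc1, an Hsp90 partner, differed by -0.29 ± 0.07, Hsph1, an Hsp110, by -0.18 ± 0.07, and Ahsa1, the activator of Hsp90 ATPase, by -0.18 ± 0.07. The 8 tested subunits of the chaperonin that folds actin and tubulin had a median of -0.10. It was the lowest among families of 8 or more tested genes grouped by symbol, but not with quantile normalization, where it was -0.09 and that of homeobox factors -0.11. They ran from Cct6a at -0.14 ± 0.06 through Tcp1 at -0.05 ± 0.06 to Cct2, which did not depart from 0 at this precision (-0.00072 ± 0.06). Each subunit overlapped between the groups, and only Cct6a reached an unadjusted p under 0.05. Fkbp8, an anti-apoptotic co-chaperone, had a higher mean (0.31 ± 0.12).

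Among the subfields, the marker genes of CA1 pyramidal neurons had the lowest median. Of 18 tested CA1 genes, 15 had a lower mean, the median was -0.11, 6 were lower and 0 higher at an unadjusted p under 0.05, and 0 were called. Mpped1, a metallophosphoesterase, lay at 10.62, 10.75 and 10.91 in impaired and 10.91, 11.03 and 11.07 in unimpaired samples, with no overlap (-0.27 ± 0.07). Fibcd1, a chitin-binding receptor that marks CA1, lay at 9.52, 10.14 and 10.41 against 10.25, 10.56 and 10.72 (-0.43 ± 0.13). Ccn3, a matricellular protein, differed by -0.34 ± 0.12, Spink8, a protease inhibitor, by -0.36 ± 0.16, Gpr161, a ciliary receptor, by -0.25 ± 0.11 and Ndst4, a heparan sulfate enzyme, by -0.33 ± 0.15. The standard CA1 marker Wfs1, which is an ER membrane protein, differed by only -0.06 ± 0.09. The mean of the list in single samples was 10.34, 10.49 and 10.68 in impaired and 10.49, 10.70 and 10.77 in unimpaired samples, which overlap. In bulk tissue, fewer cells of a type and less RNA per cell cannot be told apart. The median was -0.15 without unimpaired replicate 6, -0.18 without unimpaired replicate 3 and -0.23 without the 4 arrays of low choroid plexus signal. Without those 4 arrays, 13 of 18 genes were lower. The median was smaller, at -0.08, without unimpaired replicate 1, and also -0.08 with the myelin minus presynaptic covariate.

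The other subfields gave medians near that of all genes. Of 16 CA3 genes, 6 were higher and 10 lower, with a median of -0.02 and 0 at an unadjusted p under 0.05, and the CA3 kainate receptor Grik4 stood at 0.01 ± 0.13. Of 7 CA2 genes, 4 were higher and 3 lower (median 0.03), with Rgs14 and Pcp4 at -0.04 ± 0.12 and 0.03 ± 0.09. Of 28 granule cell genes, 16 were higher and 12 lower (median 0.04). Prox1, the transcription factor that fixes granule cell identity, had a higher mean (0.31 ± 0.15), as did Tiam1, a Rac activator of spines (0.24 ± 0.09), whereas Cyp7b1, a steroid hydroxylase, was lower in mean (-0.22 ± 0.10). The 7 hilar mossy cell genes had 3 higher and 4 lower means, with a median of -0.06. The medians of CA2, CA3, granule and mossy cell genes each changed sign in some of the alternatives, and that of CA1 in none of 27. Whether the CA1 difference exceeds that of the other subfields was not tested.

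Genes listed as markers of the thalamus, which lies next to the hippocampus, had a median of 0.18 with 8 of 11 higher. Among them were the transcription factor Tcf7l2 (0.41 ± 0.19), the kinase Prkcd (0.23 ± 0.10) and the receptor partner Ramp3 (0.40 ± 0.16). The median was 0.06 with the choroid plexus covariate and -0.01 with the myelin minus presynaptic covariate. Subicular and cortical genes had a median of 0.07. The part of carried-over tissue in the subfield values was not tested.

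**Figure D4:**
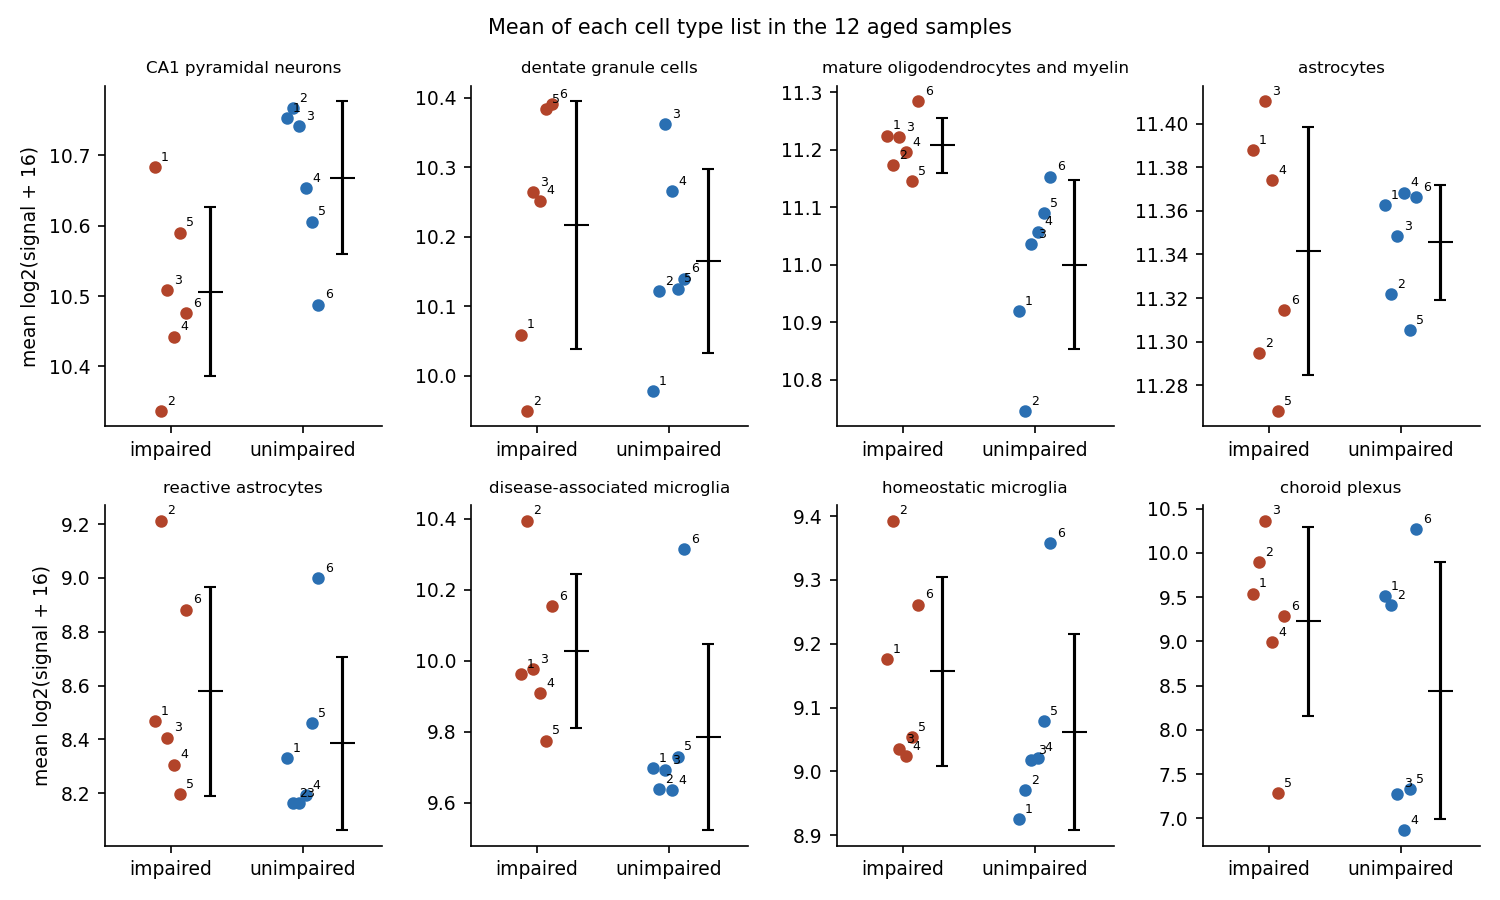
Mean log2(signal + 16) over the tested genes of 8 lists in each aged sample, with replicate numbers beside the points (red impaired, blue unimpaired) and the group mean and SD in black; axes differ between panels and do not start at 0. Myelin lies higher in the impaired samples with little overlap, CA1 lies lower on average but 3 impaired and 3 unimpaired samples share a stretch, astrocytes overlap fully, unimpaired replicate 6 is the high unimpaired point for reactive astrocytes and microglia, and choroid plexus is low in impaired 5 and unimpaired 3, 4 and 5.

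Genes of other neurons differed little. Of 14 genes common to excitatory neurons, 10 had a lower mean (median -0.08), and the median was 0.02 without the 4 arrays of low choroid plexus signal. Slc17a7, the vesicular glutamate transporter VGLUT1, lay at 12.85, 13.01 and 13.19 in impaired and 13.14, 13.26 and 13.46 in unimpaired samples (-0.27 ± 0.10). The kinase Camk2a had a higher mean on its brightest probe set (0.54 ± 0.22), but 2 of its 5 probe sets went the other way. Of 33 inhibitory neuron genes, 20 were lower in mean, with a median of -0.06. Gad1, an enzyme of GABA synthesis, lay at 13.46, 13.70 and 13.89 against 13.73, 13.85 and 14.03 (-0.19 ± 0.09). The neuropeptide Sst and the calcium buffer Pvalb, which mark separate classes of these cells, differed by 0.04 ± 0.07 and 0.06 ± 0.11. Of 24 listed genes of newborn neurons and progenitors, 14 were bright enough to test, of which 5 had a higher and 9 a lower mean, with a median of -0.01. At an unadjusted p under 0.05, 0 were higher and 2 lower, Sox2 and Nes. The newborn neuron marker Dcx differed by 0.13 ± 0.12, and the progenitor genes Sox2 and Nes by -0.27 ± 0.08 and -0.42 ± 0.19.

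Myelin genes had the most members at a low p among the glial lists. Of 36 tested genes of mature oligodendrocytes, 31 had a higher mean in impaired samples, with a median of 0.21, and 10 were higher and 0 lower at an unadjusted p under 0.05. None was called, and 3 did not overlap (0.313% of all genes did so in this direction). Mog, a glycoprotein of the outer myelin surface, lay at 10.22, 10.35 and 10.46 in impaired and 9.83, 9.96 and 10.18 in unimpaired samples (0.36 ± 0.08). Mag, which holds myelin to the axon, lay at 11.11, 11.27 and 11.83 against 10.57, 10.92 and 11.02 (0.50 ± 0.14). Pllp, a myelin proteolipid, lay at 10.91, 10.98 and 11.11 against 10.24, 10.56 and 10.90 (0.42 ± 0.11). Myrf, the transcription factor that switches on myelin genes, differed by 0.51 ± 0.15, and the membrane protein Opalin by 0.36 ± 0.12. The list mean was 11.15, 11.21 and 11.28 in impaired and 10.75, 11.05 and 11.15 in unimpaired samples, so that only the lowest impaired and the highest unimpaired sample met. The median stayed between 0.14 and 0.24 when any 1 sample was left out, and was 0.28 without the 4 arrays of low choroid plexus signal. With the myelin minus presynaptic level of each array as a covariate, which is built from this list, it was 0.00. How much white matter was dissected with each hippocampus is not recorded, and its part in the result was not tested.

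Genes of earlier stages had a median near 0. Of 22 genes of oligodendrocyte precursors and newly formed oligodendrocytes, 10 were higher and 12 lower, with a median of -0.02. The precursor receptor Pdgfra and the proteoglycan Cspg4 (NG2) differed by 0.02 ± 0.09 and -0.01 ± 0.13. C1ql1, a secreted C1q-like protein, had 7.07, 7.42 and 7.79 in impaired and 7.60, 7.89 and 8.03 in unimpaired samples (-0.45 ± 0.11), whereas Bmp4, made by newly formed oligodendrocytes, went the other way (0.68 ± 0.26).

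Astrocyte genes as a whole split evenly: 18 of 34 were higher, with a median of 0.00, and the glutamate transporter Slc1a2 and water channel Aqp4 stood at -0.00 ± 0.09 and 0.04 ± 0.10. Genes of reactive astrocytes had higher means in 23 of 25, with a median of 0.22, but 0 were higher and 1 lower at an unadjusted p under 0.05. The intermediate filament Vim lay at 10.93, 11.42 and 12.37 in impaired and 10.56, 10.96 and 11.84 in unimpaired samples (0.42 ± 0.23), and the protease inhibitor Serpina3n differed by 0.39 ± 0.21. The groups overlapped widely, with list means of 8.20, 8.44 and 9.21 against 8.16, 8.26 and 8.999. The highest values were those of impaired replicates 2 and 6 and unimpaired replicate 6. The median was 0.10 without impaired replicate 2 and 0.30 without unimpaired replicate 6. With the myelin minus presynaptic covariate it was 0.03, with 15 of 25 higher.

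Microglial genes showed the same arrays at the top. Of 25 tested genes of disease-associated microglia, the phagocytic state seen around plaques and damaged myelin, 21 had a higher mean, with a median of 0.24, and 4 were higher and 0 lower at an unadjusted p under 0.05. They were the glycoprotein Gpnmb (0.51 ± 0.19), the cathepsins Ctsd (0.27 ± 0.12) and Ctsz (0.41 ± 0.19) and the galectin Lgals3 (0.66 ± 0.31). The list mean was 9.77, 9.97 and 10.39 in impaired and 9.63, 9.70 and 10.31 in unimpaired samples. Apart from unimpaired replicate 6, every unimpaired sample lay below the lowest impaired sample, and the median was 0.35 without that replicate and 0.14 without impaired replicate 2. With the myelin minus presynaptic covariate it was 0.04, with 14 of 25 higher. Homeostatic genes had a smaller median, 0.09, with 25 of 35 higher. That median was 0.04 without impaired replicate 2, 0.17 without unimpaired replicate 6 and -0.01 with the myelin minus presynaptic covariate. Tyrobp, the signalling adaptor of Trem2, and the complement subunit C1qb were 0.35 ± 0.14 and 0.28 ± 0.12 higher in mean, while the purinergic receptor P2ry12, a marker of resting microglia, stood at -0.15 ± 0.11 and Cx3cr1 at 0.27 ± 0.19. Havcr2 (Tim-3), a checkpoint receptor of myeloid cells, was among the genes of lowest p, with 6.39, 6.55 and 6.89 in impaired and 5.72, 5.94 and 6.40 in unimpaired samples (0.60 ± 0.11, adjusted p = 0.122).

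Genes of immune pathways also had higher means in most cases. Of 42 interferon-induced genes, 36 had a higher mean, with a median of 0.19, and 7 were higher and 0 lower at an unadjusted p under 0.05, among them the RNA sensor kinase Eif2ak2 (0.71 ± 0.25), the transcription factor Irf1 (0.33 ± 0.12) and the membrane protein Ifitm3 (0.45 ± 0.19). The median was 0.10 without impaired replicate 2, 0.27 without unimpaired replicate 6 and 0.12 without the 4 arrays of low choroid plexus signal. It was 0.08 with the choroid plexus covariate and 0.03, with 24 of 42 higher, with the myelin minus presynaptic covariate. Of 24 genes of antigen presentation and complement, 19 were higher in mean, with a median of 0.21. That median was 0.12 without impaired replicate 2, 0.29 without unimpaired replicate 6 and 0.07 with the choroid plexus level as a covariate. With the myelin minus presynaptic covariate, which itself nearly separates the groups, the median turned to -0.02, with 10 higher and 14 lower. Of 71 lysosomal and autophagy genes, 50 were higher, with a median of 0.07. It was 0.04 without impaired replicate 2, 0.08 without unimpaired replicate 6 and 0.00 with the myelin minus presynaptic covariate. The autophagy kinase Ulk2 was the only member lower at an unadjusted p under 0.05 (-0.24 ± 0.08). Lymphocyte genes were scarcely detected: the T and B cell markers Cd3e and Cd79a lay below the level needed for testing, between 4.46 and 5.98 and between 4.44 and 6.37.

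Vascular genes were mixed. Of 31 endothelial genes, 17 were higher and 14 lower, with a median of 0.03. Cldn5, the tight junction protein of the blood-brain barrier, lay at 9.53, 9.75 and 9.99 in impaired and 9.89, 10.27 and 10.57 in unimpaired samples (-0.44 ± 0.12). The endothelial receptor Eng and transcription factor Sox18 were lower in mean (-0.26 ± 0.10 and -0.30 ± 0.12), and Sox17 higher (0.43 ± 0.12). The receptor Flt1 differed by -0.01 ± 0.14. Of 16 pericyte and smooth muscle genes, 11 were lower (median -0.06), with the pericyte receptor Pdgfrb at 0.05 ± 0.10.

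The largest medians belonged to the ventricle lining. All 21 choroid plexus genes had a higher mean in impaired samples, with a median of 0.76, and all overlapped, with 0 at an unadjusted p under 0.05. Ttr, the thyroxine carrier secreted by this tissue, lay at 14.02, 15.77 and 16.43 in impaired and 12.999, 14.97 and 16.08 in unimpaired samples (0.76 ± 0.51). Folr1, a folate receptor, and Kl, which encodes Klotho, differed by 0.87 ± 0.87 and 0.52 ± 0.54. The median was -0.10 without the 4 arrays of low choroid plexus signal. Ependymal and ciliary genes had a median of 0.34 with 14 of 17 higher, and 0.17 without those arrays. The regulator of motile cilia Foxj1 differed by 0.31 ± 0.26.

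**Figure D5:**
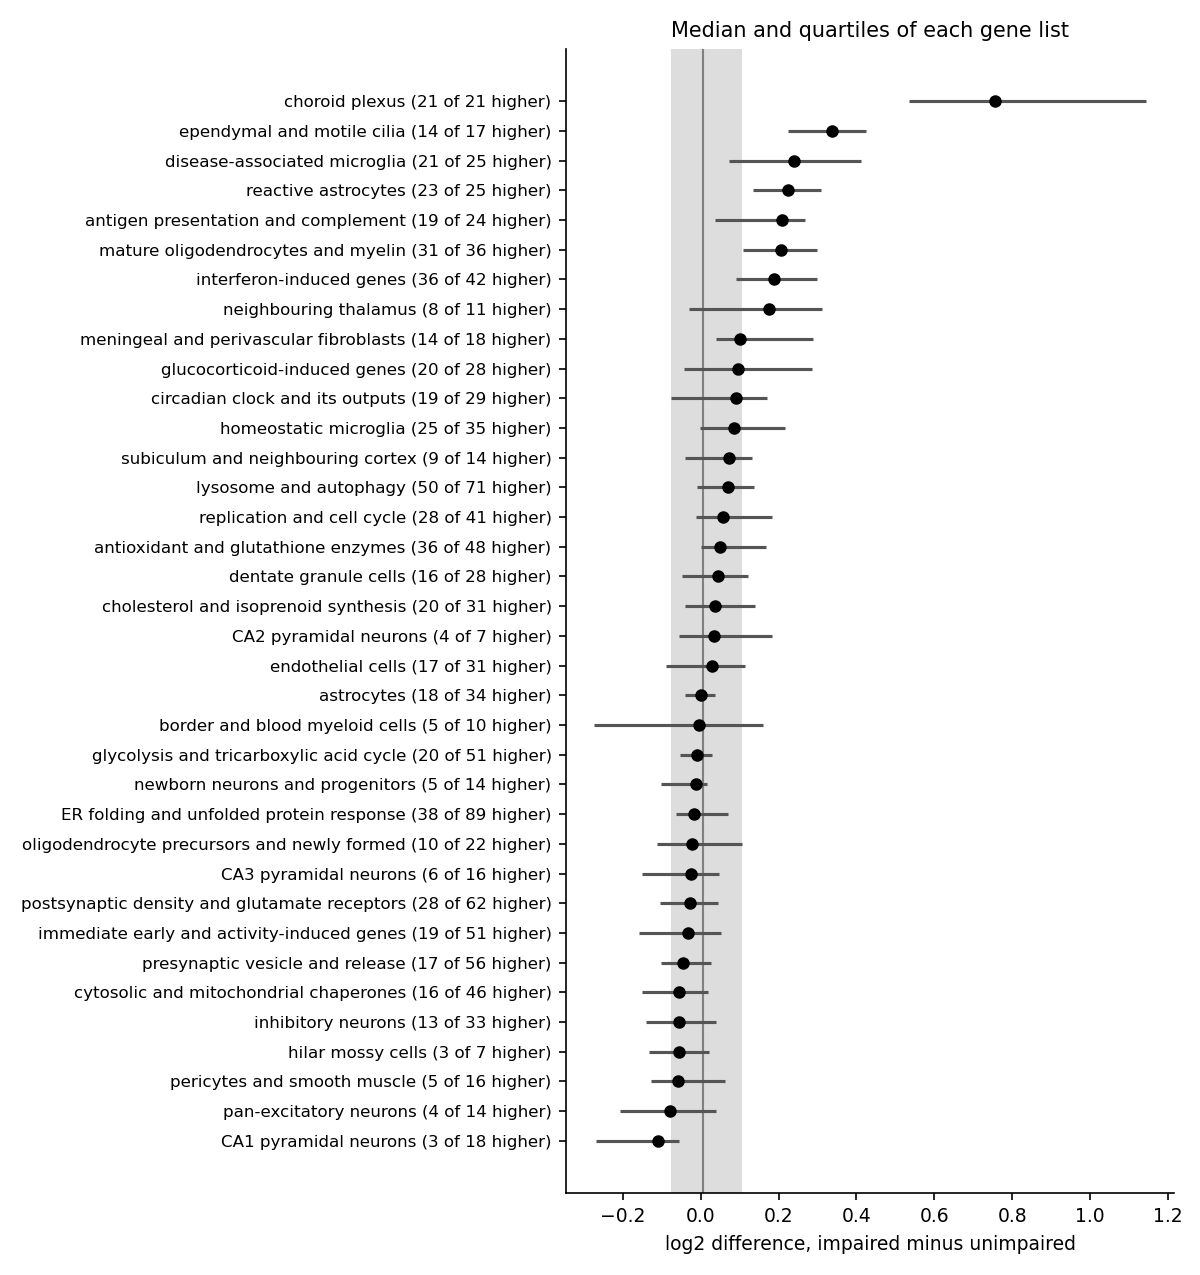
Median (point) and quartiles (line) of the log2 difference, aged impaired minus aged unimpaired, over the tested genes of each list, with the number of genes of higher mean in brackets; the grey band and line are the quartiles and median of all 13105 named genes, and the lists of lymphocytes and erythroid cells, with too few tested genes, are left out. Choroid plexus lies at the top (0.76) and CA1 at the bottom (-0.11), and most functions lie within the grey band.

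Activity and synapse genes had a lower mean slightly more often than a higher one. Of 51 immediate early and activity-induced genes, 32 had a lower mean (median -0.03), with 5 lower and 1 higher at an unadjusted p under 0.05. Nr4a3 and Nr4a2 are orphan nuclear receptors induced by learning. Nr4a3 lay at 10.79, 11.17 and 11.28 in impaired and 11.31, 11.36 and 11.41 in unimpaired samples, with no overlap (-0.23 ± 0.07). Nr4a2 lay at 10.95, 11.16 and 11.29 against 11.21, 11.51 and 11.70 (-0.35 ± 0.10). Vgf, a neuropeptide precursor, differed by -0.31 ± 0.09 and Dusp6, a phosphatase of ERK, by -0.34 ± 0.12. Of 56 presynaptic genes, 39 were lower in mean (median -0.05). Doc2b, a calcium sensor of spontaneous release, lay at 10.42, 10.84 and 11.05 against 10.97, 11.30 and 11.43 (-0.46 ± 0.11), while its relative Doc2a was higher in mean (0.27 ± 0.10). Of 62 postsynaptic genes, 28 were higher and 34 lower (median -0.03). At an unadjusted p under 0.05, 2 were higher and 4 lower, against 4.43% and 3.64% of all genes. Among the lower were the synaptic adhesion protein Lrrtm2 (-0.31 ± 0.10) and the dim AMPA receptor partner Cacng8 (-0.89 ± 0.32, 1 of its 2 probe sets the other way). The postsynaptic median was 0.00 with the choroid plexus covariate and 0.00 without the 4 arrays of low choroid plexus signal.

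Metabolic lists had medians near 0. Glycolysis and the tricarboxylic acid cycle had 20 higher and 31 lower means (median -0.01) and 0 genes at an unadjusted p under 0.05. Cholesterol synthesis had 20 higher and 11 lower means (median 0.04). Antioxidant enzymes had 36 higher and 12 lower (median 0.05), or 75% higher against 52.3% of all genes. Mt2 and the glutathione synthetase Gss (0.32 ± 0.12) were the antioxidant members of lowest p. Of 41 replication and cell cycle genes, 28 were higher (median 0.06), with 5 higher and 0 lower at an unadjusted p under 0.05. Mcm3 and Mcm2, subunits of the replicative helicase, had means 0.70 ± 0.16 and 1.01 ± 0.33 higher. Mcm3 lay at 6.76, 6.99 and 7.22 in impaired and 5.59, 6.30 and 6.71 in unimpaired samples, without overlap, but its second probe set went the other way.

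Families of genes taken by symbol cover functions outside these lists. The proteins that guide splice site choice, the SR and hnRNP proteins, had 20 of 32 lower in mean, with a median of -0.08, and 8 were lower and 1 higher at an unadjusted p under 0.05. Tra2a lay at 9.70, 9.83 and 10.45 in impaired and 9.93, 10.44 and 10.83 in unimpaired samples (-0.48 ± 0.16), and Hnrnpm at 9.47, 9.62 and 9.75 against 9.74, 9.81 and 10.27 (-0.27 ± 0.10). Srsf2 and Tra2b differed by -0.13 ± 0.05 and -0.16 ± 0.07, and Hnrnpdl by 0.20 ± 0.07. The median was -0.04 without unimpaired replicate 2 and -0.04 with the choroid plexus covariate. Core spliceosome proteins had a median of 0.05. Receptors for acetylcholine, monoamines and opioids had 15 of 21 lower (median -0.07), with 4 lower and 0 higher at an unadjusted p under 0.05. The adrenergic receptor Adra2c lay at 8.20, 8.46 and 8.95 against 8.69, 8.99 and 9.12 (-0.44 ± 0.12), the serotonin receptor Htr1a at 8.77, 8.87 and 9.05 against 9.02, 9.19 and 9.36 (-0.31 ± 0.08, 1 of 2 probe sets the other way), and the nociceptin receptor Oprl1 differed by -0.38 ± 0.11. Cadherins, which hold cells together, had 11 of 15 lower (median -0.09), with Cdh9, an adhesion protein of mossy fibre synapses on CA3, at -0.38 ± 0.10 and Cdh11 at -0.30 ± 0.10. Their median was -0.04 without unimpaired replicate 2, -0.16 without impaired replicate 4 and -0.18 without the 4 arrays of low choroid plexus signal. The vacuolar proton pump had 14 of 18 lower (median -0.07) and 0 at an unadjusted p under 0.05. Sox factors had 11 of 17 lower (median -0.07), homeobox factors 14 of 21 (-0.07) and contactins with neurexin partners 12 of 22 (-0.05).

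The families with the highest medians were interleukins and their receptors (17 of 25 higher, 0.12), S100 calcium-binding proteins (7 of 9, 0.12), the Wnt pathway (17 of 26, 0.11), chloride channels (8 of 11, 0.09), collagens (19 of 32, 0.08), organic anion and drug transporters (31 of 42, 0.07), serpins (9 of 13, 0.07) and chemokines (13 of 22, 0.07). Within the Wnt pathway, the ligand Wnt9a lay at 8.57, 8.89 and 9.13 in impaired and 7.63, 8.03 and 8.37 in unimpaired samples, with no overlap (0.81 ± 0.15, adjusted p = 0.122). The receptors Fzd4 and Fzd6 were 0.62 ± 0.25 and 0.58 ± 0.20 higher in mean, and the ligand Wnt7a lower (-0.43 ± 0.15). Several of these families include choroid plexus transcripts such as Clic6 (1.15 ± 0.72). Without the 4 arrays of low choroid plexus signal the medians were 0.05 for interleukins, 0.05 for the Wnt pathway, 0.03 for chemokines and 0.00 for collagens, but 0.20 for S100 proteins and 0.09 for transporters. Without unimpaired replicate 4 alone they were 0.05 for the Wnt pathway, 0.03 for collagens and 0.02 for chemokines. Interleukins stood at 0.06 without unimpaired replicate 1, transporters at 0.03 without unimpaired replicate 2, S100 proteins at 0.21 without impaired replicate 4 and serpins at 0.15 without impaired replicate 5. S100a13 had the lowest p in its family (0.34 ± 0.10). At the other end, large families had medians near 0: the median was 0.04 for 46 cytosolic ribosomal proteins, 0.00 for 76 mitochondrial ribosomal proteins, 0.01 for 43 complex I subunits, -0.02 for 22 glutamate receptors and 0.00 for 305 zinc finger proteins.

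Single genes outside these groups had differences as large without passing. Their adjusted p ran from 0.122 to 0.278 among the 15 genes of lowest p in each direction, Dbp apart. St8sia6, a sialyltransferase, lay at 8.31, 8.39 and 8.53 in impaired and 7.79, 7.95 and 8.20 in unimpaired samples (0.42 ± 0.08), with 1 of 3 probe sets the other way. Sphk1, the kinase that makes sphingosine 1-phosphate, lay at 5.93, 6.20 and 6.502 against 4.56, 5.41 and 5.87 (0.93 ± 0.22), all near the dim end of the scale. Qk, an RNA-binding protein of oligodendrocytes, differed by 0.34 ± 0.07, Stxbp2, a fusion regulator, by 0.58 ± 0.13, and the nuclear envelope protein Sun2 by 0.50 ± 0.13. On the lower side, Irf2bpl, a transcriptional regulator, lay at 10.27, 10.44 and 10.60 against 10.69, 10.85 and 11.02 (-0.42 ± 0.08), and B3galt2, a galactosyltransferase, at 7.92, 8.08 and 8.26 against 8.42, 8.74 and 9.39 (-0.74 ± 0.15). Both sets of ranges were apart. Pomt1, a mannosyltransferase of dystroglycan, differed by -0.51 ± 0.12, Rasl10a, a small GTPase, by -0.44 ± 0.10 and Arl15, another, by -0.70 ± 0.16. Qk had 1 probe set that went the other way, and at least 1 did so in Atf6, Alg12, Canx, Dnajc3, Dsp, Ern1, Atf4, Cct2, Tcf7l2, Cspg4, C1qb, Ulk2, Flt1, Pdgfrb, Srsf2 and Hnrnpdl. Of all 13105 genes, 41 had impaired samples entirely above the unimpaired ones and 32 entirely below, and the widest of these differences were those of the transcription factors Ebf3 (1.18 ± 0.37) and Meox1 (-1.13 ± 0.30), both dim.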

How the data were processed

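Groups and replicate numbers came from the sample titles. The deposited table holds probe set intensity on a linear scale, produced by the authors in MAS5 (version not given in the sources used here), as the submitters' processing notes list it. It holds 45101 probe sets with signals from 0 to 27601.2. From the deposited values, every array was brought to a common mean of 500, with 2% trimmed at each end, and log2(intensity + 16) was taken. The 64 control probe sets and the dimmest 40% were left out, which kept 27022 with a mean above 5.92. Precision is limited by the number of arrays.

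The model, in limma 3.58.1 (R 4.3.3), used all 18 samples with 3 group means and 15 residual degrees of freedom, with empirical Bayes moderation, 2-sided tests and Benjamini-Hochberg adjustment. The fit of the 12 aged samples has 10. The platform annotation gives 34945 probe sets 1 gene symbol, 932 several and 9160 none, and 34754 of the first were matched to RefSeq (GRCm38.p6). A gene is given by its brightest probe set, and lists by counts and medians without tests.

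The named genes are all tested probe sets of Dbp and Hspa5, the 15 genes of lowest p in each direction, the 10 largest differences without overlap in each direction, up to 6 members of lowest p and the defining markers of each list, all clock genes, the genes with an ER stress element, and the 8 families of highest and 8 of lowest median. Members and lists were chosen with earlier results of these data known. Alternatives covered normalization, offset, filter, samples in the fit, the sample number as a block, 3' to 5' ratio, choroid plexus and myelin covariates, moderation, array weights, the probe sets of a gene, and leaving out samples.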

Additional observations from a re-analysis of the deposited data

Results flagged for a closer look

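A sample was singled out where its gap to the nearest other sample of its group exceeded Dixon's critical value for 6 samples, as a share of the group's range. Chance singles out about 1 in 20 groups, and 18 of 160 were found here. Unimpaired replicate 6 was the high sample of its group for the mean of reactive astrocyte genes (8.999), homeostatic microglia (9.36), disease-associated microglia (10.31), glucocorticoid-induced genes (10.09), cholesterol synthesis (10.20) and lysosome and autophagy (10.69), and for Manf (11.26), and the low one for Zfp46 (9.28). Impaired replicate 2 was the high sample of its group for the mean of immediate early genes (9.57) and for Hspa5 on its middle probe set (11.47), and the low one for Rarres1 (4.81). Unimpaired replicate 2 was low for Sun2 (9.24) and high for Tox3 (9.50). The other values were Kcng2 in impaired replicate 5 (9.39, high), Nup188 in impaired replicate 3 (7.93, high) and in unimpaired replicate 4 (5.42, low), 0610030E20Rik in unimpaired replicate 1 (8.54, high) and Stxbp2 in unimpaired replicate 3 (7.27, low).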

How the results depend on the processing

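The 3 called probe sets became 6 (2 higher, 4 lower) with the dimmest 60% left out and 9 (3 higher, 6 lower) with trended and robust moderation. They became 0 with only the 12 aged samples, with the replicate block and with the myelin minus presynaptic covariate, and 2 to 4 when any 1 sample was left out. That covariate itself nearly separates the groups. The replicate numbers did not pair the samples: same-numbered deviations correlated at -0.143 to 0.060. Under those 3 settings the brighter Dbp probe set stood at 0.62 (adjusted p = 0.0877), 0.62 (0.0858) and 0.58 (0.142), the dimmer at 0.56 (0.0970), 0.56 (0.137) and 0.52 (0.142), and the middle Hspa5 probe set at -0.56 (0.0970), -0.56 (0.137) and -0.57 (0.288). The Hspa5 call also ended with quantile normalization (-0.55, 0.0617), an offset of 1 (-0.57, 0.0510), no filter (-0.56, 0.169), the 3' to 5' ratio (-0.52, 0.0876) or choroid plexus level (-0.57, 0.0715) as a covariate and without the 4 arrays of low choroid plexus signal (-0.59, 0.220). It ended without 10 single samples, impaired 1, 3, 4, 5 and 6 and unimpaired 1, 2, 4, 5 and 6, with differences of -0.60 to -0.53 over all left out (adjusted p 0.0214 to 0.142). The dimmest Hspa5 probe set turned to -0.20 without the 4 arrays and to -0.013 without unimpaired replicate 3, with leave-one-out values of -0.013 to 0.15. The cause was not tested.

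Of 977 values of 38 named genes under alternatives, 974 kept their side of the threshold and 3 passed it. These were Havcr2 without unimpaired replicate 6 (0.68), and Irf2bpl (-0.42) and Wnt9a (0.81) with trended and robust moderation. No value changed sign. All 38 genes were uncalled in the fit of 18 samples, and were chosen for a low p or a large difference without overlap. Keeping their side therefore meant staying uncalled, and the choice itself favours an unchanged sign. Neither count measures how stable these genes are. Of 1457 medians of 54 lists and families, 17 moved by more than the spread between samples. With the myelin minus presynaptic covariate the medians were 0.00 for myelin and 0.01 for presynaptic genes, the lists that make it up, and -0.01 for thalamus, -0.05 for ependyma, 0.00 for clock genes, -0.34 for border myeloid cells, -0.15 for Sox factors and 0.04 for interleukins. Without the 4 arrays they were -0.23 for CA1, 0.02 for excitatory neurons, 0.03 for glycolysis, -0.18 for cadherins, -0.16 for amine receptors and 0.05 for interleukins. Border myeloid cells moved to 0.30 with the dimmest 60% left out, and interleukins to 0.04 with the choroid plexus covariate and 0.06 without unimpaired replicate 1. The median of all genes stayed within 0.02 of 0.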

Other observations

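Some probe sets that are not the brightest of their gene passed the threshold under an alternative and were chosen here after their values were seen. On 1 of its probe sets, Homer1, a scaffold of the postsynaptic density with a short form induced by activity, differed by -0.66 ± 0.12 (adjusted p = 0.0839), while its 4 other tested probe sets lay between -0.10 and 0.03. Sesn2, a stress-induced inhibitor of mTORC1, differed by -1.24 ± 0.22 on 1 probe set (adjusted p = 0.0765) and by -0.13 ± 0.19 on the other. Doc2b differed by -0.59 ± 0.10 on its dimmer probe set (adjusted p = 0.0765), in the same direction as its brightest probe set. Mkks, a chaperonin-like protein of the cilium, differed by -0.59 ± 0.10 on the dimmer of its 2 probe sets (adjusted p = 0.0615). Sc5d, an enzyme of cholesterol synthesis, differed by -0.76 ± 0.13 on the dimmest of 3 probe sets (adjusted p = 0.0615) and by 0.20 ± 0.08 on its brightest probe set.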
